A study of Rattus norvegicus with 30 samples.

Results

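Large H4K16Ac domains are stretches of 5000 bp or more that the peak caller reported as 1 unbroken interval in the H4K16Ac list of control embryo cortex. They were chosen by their measured width in that list, and 1271 of its 173786 intervals (0.731%) met the rule. These domains held 7.72 Mb, or 3.93% of all bases in control H4K16Ac intervals. Each was described by what the other lists of the study reported inside it and by what the H4K16Ac list of the high-fat diet (HFD) group reported at the same place.

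Acetylation of lysine 16 on the tail of histone H4, which MOF (KAT8) lays down, weakens the contacts between neighbouring nucleosomes and is found in open, transcribed chromatin. Trimethylation of histone H3 on lysine 4 (H3K4me3) marks the start sites of active or poised genes. Trimethylation on lysine 27 (H3K27me3) is written by EZH2 in Polycomb repressive complex 2 and accompanies silencing, and in embryonic tissue it often shares promoters of developmental genes with H3K4me3, a state called bivalent. Antibodies to total H3 and to pan H4 bind these histones whether or not they are modified and report where nucleosomes were recovered.

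The tissue was frontal cortex of E14.5 Wistar rat embryos, collected from dams of 2 groups. Control dams were kept on normal chow, and HFD dams had been made obese with a commercial high-fat diet before mating, their sires being healthy. Embryos of a litter were pooled for a replicate, and no transgene or drug was used. The 30 libraries fall into 3 per antibody in either diet. One of them, the third of control total H3, carries both diets in its labels, and its title, which says control, was followed. The 3 libraries of each antibody and diet were combined into 1 peak list, so that there were 10 lists, no spread between replicates and no test between diets. Intervals given after shares are 95% Wilson intervals, which cover counting error only, and no difference below was tested. The identity of the tissue was not checked against marker genes, since no gene annotation of the genome build rn6 was used here.

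The depth behind each list was estimated as the background pileup, in fragments per base, from the most frequent fold enrichment of the list and its p-value. For H4K16Ac it was 1.61 in control and 1.75 in HFD, or 108.6% of control. It was 1.23 and 1.08 for H3K4me3, 1.64 and 1.80 for pan H4, and 1.02 and 1.13 for total H3. The H3K27me3 lists stood apart, with 0.880 in control and 0.351 in HFD, which was 39.9% of control. Diet and depth cannot be told apart for H3K27me3. Every list was lenient and ran to a false discovery rate (q) of nearly 0.5.

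The large domains were wide and weakly enriched. Their median width was 5763 bp (quartiles 5305.5 and 6486.5 bp), and the widest spanned 15768 bp. Only 121 reached 7500 bp, and 12 reached 10000 bp. Their fold enrichment over the local background, averaged by the caller over the whole interval, had a median of 2.26 (quartiles 2.09 and 2.45). This was below the medians of the 3 narrower classes of the same list, which were 3.29 for 102593 intervals under 1 kb, 3.04 for 61922 intervals of 1 to 3 kb and 2.59 for 8000 intervals of 3 to 5 kb. A −log10 q of 5 or more was reached by 29 domains (2.28%), against 22.2%, 22.6% and 6.35% of the narrower classes. These widths and enrichments belong to the list that chose the domains and are given as a description.

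**Figure D1:**
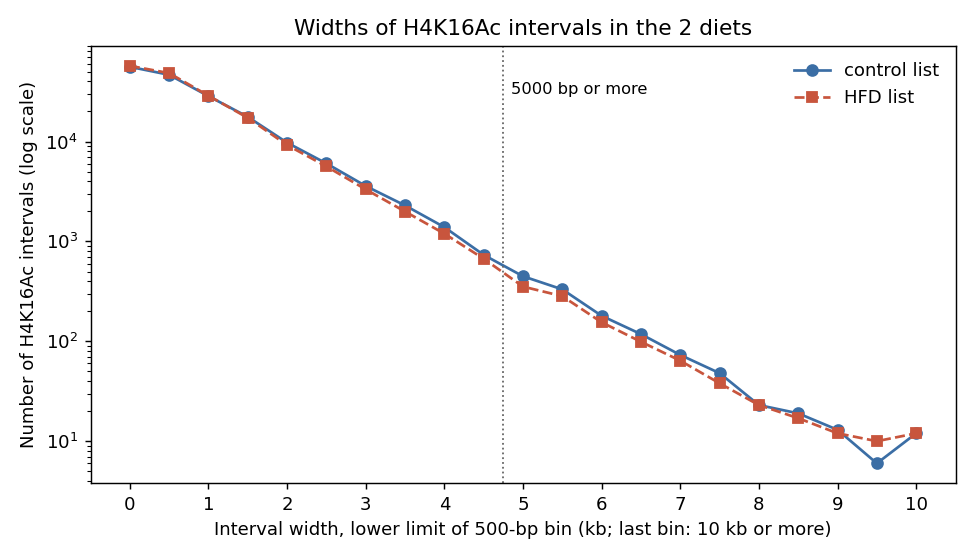
Number of H4K16Ac intervals by width in the control and HFD lists, on a log scale, with the 5000 bp limit marked. The control list holds 1271 intervals past the limit and the HFD list holds 1066.

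By the same width rule the HFD list held 1066 large domains (0.610% of its 174862 intervals), 0.839 times the control number. They covered 6.55 Mb, 0.848 times the control length. In both lists 12 domains reached 10000 bp, and the HFD median width of 5779.5 bp was close to the control value. The whole HFD list had slightly more intervals than control on a slightly shorter length, 190.8 Mb against 196.1 Mb. The background pileup of the HFD list was 108.6% of control, and its part in the number of large intervals was not tested.

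The limit of 5000 bp falls in a continuous range of widths. The 3 domains just inside it were chr1:214798798-214803797 (5000 bp), chr10:20496557-20501557 (5001 bp) and chr19:53729511-53734512 (5002 bp), with fold enrichments of 2.15, 2.51 and 2.03. The 3 intervals just outside it were chr10:85768325-85773323 (1 bp short), chr1:199683369-199688364 (4996 bp) and chr3:79951837-79956832 (4996 bp), with fold enrichments of 2.61, 2.41 and 2.27. All coordinates are those of rn6.

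Large domains were unevenly placed in the genome. Of the 1271 domains, 1269 lay on chromosomes 1 to 20 and X, with none on Y and 2 on unplaced sequence. Per 10 Mb, chromosome 12 held 19.0 domains, chromosome 20 held 13.3, chromosome 19 held 10.8, chromosome 10 held 10.5 and chromosome 5 held 8.58. These 5 chromosomes carried 40.1% of the domains and 22.9% of all control H4K16Ac intervals on 16.4% of the span. The lowest densities were 0.813 per 10 Mb on chromosome X (13 domains), 1.13 on chromosome 2 (30 domains) and 1.59 on chromosome 18 (14 domains). Per 1000 H4K16Ac intervals the order differed, with 2.44 large domains on chromosome 2, 2.72 on chromosome 18 and 3.31 on X, where H4K16Ac intervals were few. The HFD list had fewer domains than control on 21 of the 22 chromosomes, and both had none on Y. The step was from 29 to 12 domains on chromosome 11 and from 149 to 111 on chromosome 5, but only from 96 to 93 on chromosome 7.

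**Figure D2:**
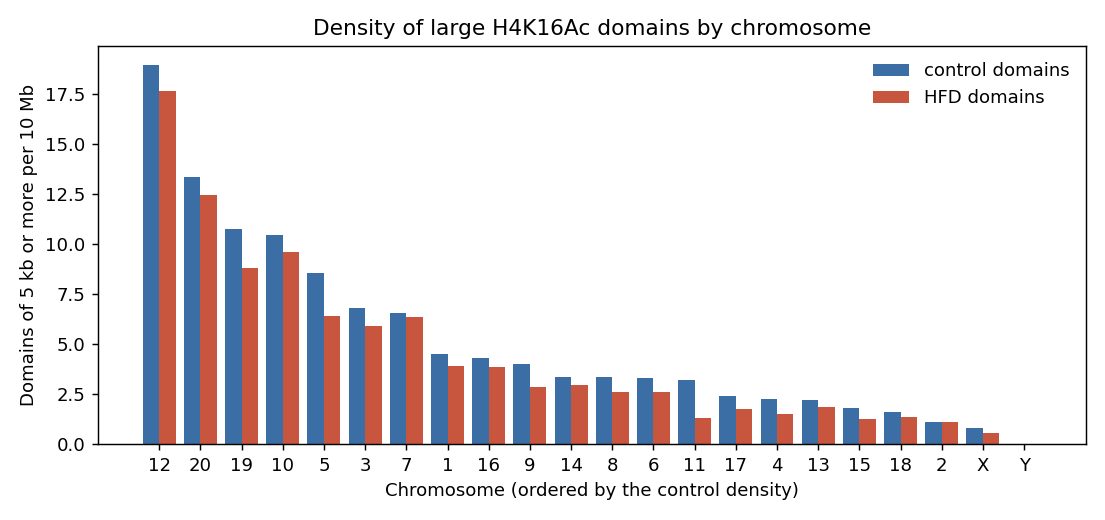
Large H4K16Ac domains per 10 Mb of each rat chromosome (rn6), from the control and the HFD list. Chromosome 12 has the highest density, with 19.0 domains per 10 Mb in control, and chromosome X is among the lowest, with 0.813.

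Large domains were frequent in the last 10% of some chromosomes. That stretch held 295 of the domains (23.2%), against 14.0% of all control H4K16Ac intervals, and chromosomes 5, 3, 10 and 12 supplied 187 of the 295. On chromosome 5, 74 of the 149 domains (49.7%) lay there and 22.0% of all intervals, whereas chromosome 20 had 0 of 75 domains and 3.40% of its intervals and chromosome 1 had 8 of 127 domains (6.30%) and 12.2% of its intervals. The first 10% held 10.8% of the domains and 10.4% of all intervals. Chromosome 3 stood apart there, with 45 of its 121 domains and 2223 of its 11818 intervals, beside 46 domains in its last 10%. Another large domain lay within 50 kb of 391 domains (30.8%), where 9.74% of all control H4K16Ac intervals and 23.3% of those of 3 to 5 kb had one, and the median distance between nearest large domains was 120 kb. They formed 47 groups of 3 or more, of which the largest had 4 members. One such group, chr19:53947575-54062146, had 31.9 kb of its 114.6 kb in large domains. Within 20 kb of a large domain 25.5% of the bases lay in control H4K16Ac intervals of any width. Around intervals under 1 kb, of 1 to 3 kb and of 3 to 5 kb this was 10.5%, 14.5% and 21.8%.

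Most large domains held at least 1 H3K4me3 interval. In the control H3K4me3 list this was so for 1088 of 1271 domains (85.6%, 83.6 to 87.4%), compared with 1093 for the HFD list (86.0%, 84.0 to 87.8%). Over all control H4K16Ac intervals the shares were 49.5% and 47.2%, in a set where most intervals are narrow and have less room for an overlap. In the class of 3 to 5 kb they were 77.1% and 75.4%. By length the order was the opposite: H3K4me3 covered 13.2% of the bases of large domains, against 34.5%, 27.6% and 18.0% in the classes under 1 kb, of 1 to 3 kb and of 3 to 5 kb. The H3K4me3 intervals inside were short, the widest of a domain having a median of 557 bp in control and 516 bp in HFD. At least 2 separate H3K4me3 intervals were present in 525 domains in control and in 593 in HFD. The same was so for 4.08% and 4.20% of all H4K16Ac intervals, most of which are narrow. In the class of 3 to 5 kb it was so for 2109 and 2143 of 8000 intervals. H3K4me3 of −log10 q of 5 or more was found in 262 domains (20.6%) in control and in 243 (19.1%) in HFD, close to the 17.3% and 17.2% of all intervals.

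The diets hardly differed in this mark. HFD H3K4me3 covered 12.9% of domain bases, 0.976 times the control value, and the same ratio over all H4K16Ac intervals was 0.937. Of the domains, 589 (46.3%) had more H3K4me3 bases in HFD and 624 (49.1%) had fewer, against 27.1% and 33.7% of all intervals, many of which held none. In the class of 3 to 5 kb, 40.4% had more and 49.0% fewer.

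**Figure D3:**
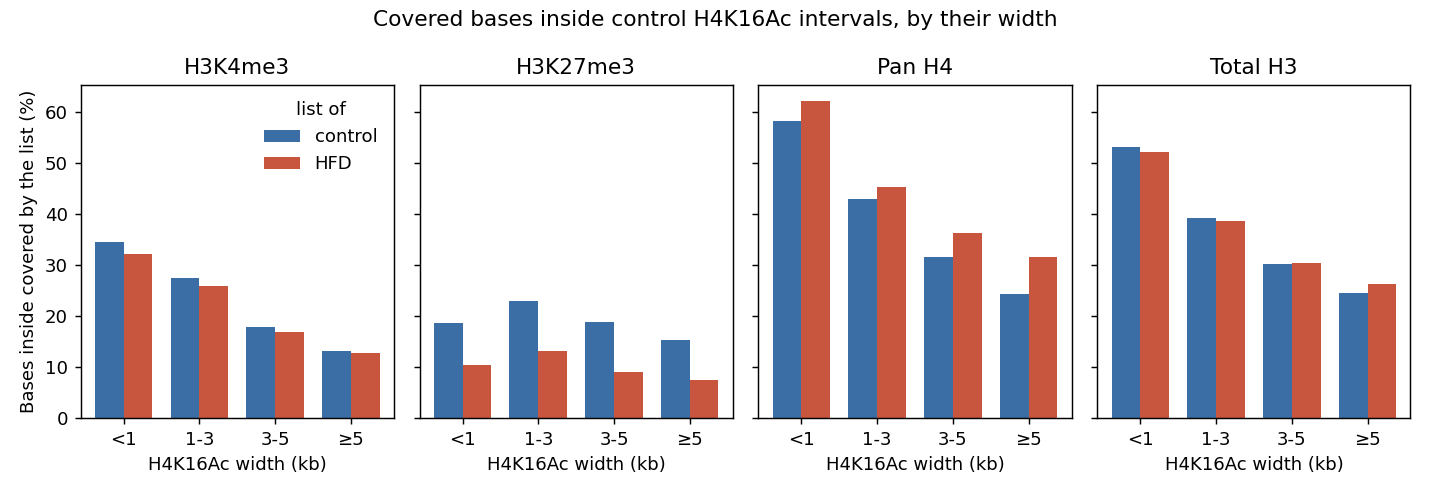
Percent of bases in control H4K16Ac intervals that H3K4me3, H3K27me3, pan H4 and total H3 covered, for 4 width classes and both diets. Coverage by each of the 4 is lowest in the large domains, and HFD lies above control for pan H4 and below it for H3K27me3.

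H3K27me3 was reported in 877 large domains in control (69.0%, 66.4 to 71.5%), whereas the HFD list reported it in 646 (50.8%, 48.1 to 53.6%). Over all control H4K16Ac intervals the shares were 29.6% and 21.2%, and in the class of 3 to 5 kb 57.4% and 40.15%. The mark covered 15.4% of domain bases in control and 7.47% in HFD, a ratio of 0.486. By length the large domains held less of it than narrower intervals, since over all control H4K16Ac intervals the mark covered 20.9% in control and 11.6% in HFD, and 18.6%, 23.0% and 18.9% in the 3 narrower classes in control. The ratio between the diets was similar in the other width classes (0.563 under 1 kb, 0.571 for 1 to 3 kb and 0.482 for 3 to 5 kb). The widest H3K27me3 interval in a domain had a median of 1051 bp in control and 668.5 bp in HFD, and domains with a −log10 q of 5 or more for this mark numbered 132 (10.4%) in control and 7 (0.551%) in HFD, near the 9.48% and 0.326% of all intervals. Fewer H3K27me3 bases in HFD were counted in 735 domains (57.8%), against 26.3% of all H4K16Ac intervals, and more in 288 (22.7%), against 9.36%, while 248 had none in either list. In the class of 3 to 5 kb, 49.75% had fewer and 17.4% more. The background pileup of the HFD list, at 39.9% of control, moved with these values, and its part in them was not tested. With lists of equal length, 54.1% of the domains held control H3K27me3 and 50.8% HFD H3K27me3, and the ratio of covered bases was 0.632. With only H3K27me3 of −log10 q of 2 or more, the shares were 19.0% in control and 1.97% in HFD. The ratio of covered bases was then 0.128. Neither alternative was computed over all H4K16Ac intervals, so these values are not read as particular to large domains.

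Domains grouped by H3K27me3 differed in their H3K4me3. H3K27me3 was reported in both diets in 500 domains (39.3%, against 15.0% of all H4K16Ac intervals), in control only in 377 (29.7%, against 14.6%), in HFD only in 146 (11.5%, against 6.15%) and in neither in 248 (19.5%, against 64.2% of all). Control H3K4me3 was present in 93.4% (90.9 to 95.3%) of the first group, 88.3% (84.7 to 91.2%) of the second, 76.7% (69.2 to 82.8%) of the third and 71.0% (65.0 to 76.3%) of the last. It covered 17.9%, 12.4%, 7.94% and 7.45% of their bases. H3K4me3 of −log10 q of 5 or more was found in 37.4% of domains with H3K27me3 in both diets and in 3.23% of those with none. All H4K16Ac intervals were not grouped for H3K4me3 in this way, so the difference is not read as particular to large domains. The groups had similar widths, with medians between 5603 and 5839 bp.

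The 4 other lists overlapped each other inside large domains, each pair by more than the share of domain bases that the lists cover. These overlaps were not computed over all H4K16Ac intervals, so they are not read as particular to large domains. In control, 41.7% of the H3K27me3 bases were also in H3K4me3 intervals, which covered 13.2% of all domain bases, and 48.6% of the H3K4me3 bases were in H3K27me3 intervals, which covered 15.4%. Pan H4 and total H3 intervals, with 24.3% and 24.6% of domain bases, held 54.4% and 53.2% of the H3K27me3 bases and 72.6% and 71.2% of the H3K4me3 bases. Of 1109 H3K27me3 pieces, 64.4% touched an H3K4me3 interval. In the HFD lists 40.2% of the H3K27me3 bases lay in H3K4me3, nearly the control value, and 23.3% of the H3K4me3 bases lay in H3K27me3, whose HFD list was the shorter of its pair (31.8 Mb against 48.9 Mb). Since these are lists from pooled cells, marks on the same bases may come from different cells.

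At the lenient threshold of the lists, nearly every large domain contained pan H4 and total H3 intervals, but in short pieces. Pan H4 was reported in 1254 domains in control (98.7%) and 1267 in HFD (99.7%), against 74.7% and 77.2% of all H4K16Ac intervals. Total H3 was reported in 1260 (99.1%) and 1265 (99.5%), against 71.1% and 70.8%. Of H4K16Ac intervals of 3 to 5 kb, 96.2% and 98.1% held pan H4, and 96.2% and 96.1% held total H3. With only total H3 of −log10 q of 5 or more, the shares of large domains were 50.1% in control and 63.8% in HFD. Over all intervals these were 38.6% and 40.2%, and in those of 3 to 5 kb 52.6% and 60.5%. Pan H4 covered 24.3% of domain bases in control, with 4.06 intervals per 10 kb, and 58.3% of the bases of H4K16Ac intervals under 1 kb. Total H3 covered 24.6% of domain bases with 4.34 intervals per 10 kb, and 53.1% of the bases of intervals under 1 kb. Most of the length of a large domain was therefore listed as H4K16Ac with no interval of either histone list. In all, 59.5% of domain bases (4.59 Mb) were in no other control list, against 41.2% of the bases of all control H4K16Ac intervals.

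Pan H4 differed between the diets more in large domains than in narrower intervals, by value. HFD pan H4 covered 31.6% of domain bases with 5.12 intervals per 10 kb, a ratio to control of 1.30. In the classes under 1 kb, of 1 to 3 kb and of 3 to 5 kb this ratio was 1.07, 1.05 and 1.15. Pan H4 bases were more numerous in HFD in 967 domains (76.1%) and fewer in 304 (23.9%), where 47.0% of all H4K16Ac intervals had more and 35.7% fewer. In the class of 3 to 5 kb, 62.65% had more and 36.6% fewer. Pan H4 of −log10 q of 5 or more was found in 525 domains (41.3%) in control and in 1129 (88.8%) in HFD, against 36.1% and 56.5% of all intervals and 43.1% and 82.9% of those of 3 to 5 kb. Summed over intervals past that limit alone, the ratio of covered bases was 2.53. This ratio was not computed over all H4K16Ac intervals, so it is not read as particular to large domains. The background pileup of HFD pan H4 was 109.6% of control, and its part in these values was not tested. Total H3, whose HFD background was 111.1% of control, covered 26.2% of domain bases in HFD, a ratio of 1.07. Its bases were more numerous in HFD in 725 domains (57.0%) and fewer in 543 (42.7%), against 39.0% and 41.5% of all intervals. In the class of 3 to 5 kb, 49.7% had more and 49.25% fewer. Domains were also taken from the HFD list in place of the control list. Inside them the ratios of HFD to control bases were 1.39 for pan H4 and 1.12 for total H3. Over all HFD H4K16Ac intervals these ratios were 1.15 and 1.04, and in those of 3 to 5 kb 1.24 and 1.10.

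The combination of all 4 other marks, H3K4me3, H3K27me3, pan H4 and total H3, was present in 796 domains (62.6%) in control, against 24.2% of all control H4K16Ac intervals. H3K4me3 with both histones and no H3K27me3 was found in 282 (22.2%, against 17.8%), both histones alone in 95 (7.47%, against 16.9%), and H3K27me3 with both histones and no H3K4me3 in 74 (5.82%, against 2.90%). There were 2 domains with none of the 4, against 13.8% of all intervals, which have less room to touch a list.

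All 4 covered more of the domains than of the 20 kb on either side, but by less than for narrower H4K16Ac intervals. Control H3K4me3 covered 6.35% of the surrounding bases, so that the domains held 2.08 times as much per base, and the same ratio was 10.3 for intervals under 1 kb, 6.54 for 1 to 3 kb and 3.15 for 3 to 5 kb. For H3K27me3 the surroundings of large domains had 6.07%, a ratio of 2.53 against 7.67 for intervals under 1 kb. The ratios were 2.15 for pan H4 and 2.23 for total H3, against 9.53 and 10.4 for intervals under 1 kb. In flanks of the domain's own length without any base in another H4K16Ac interval, H3K4me3 covered 1.07% and H3K27me3 1.20%, a low level that rests on leaving out those intervals, where the other lists lie as well.

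Inside the domains the other lists were denser near the ends. The 10% at the ends of the domains were covered by pan H4 for 31.4% and the middle 20% for 22.2%, and by total H3 for 31.8% and 23.0%. H3K4me3 covered 16.6% of the ends and 12.2% of the middle in control, and 16.4% and 12.1% in HFD. H3K27me3 was flatter in control, with 15.1% and 14.3%. The strongest H3K4me3 summit, known for 1085 domains, lay in the outer 20% at either end, which together make up 40% of the length, in 42.9%, and in the middle 20% in 17.2%. The 10% at each end, 20% of the length in all, held 25.8% of these summits, and 30.5% and 29.3% of the strongest pan H4 and total H3 summits. An interval of the H4K16Ac list begins and ends where enrichment does, so that ends and content are not independent. HFD H4K16Ac covered 69.5% of the ends and 74.2% of the middle, the reverse order.

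**Figure D4:**
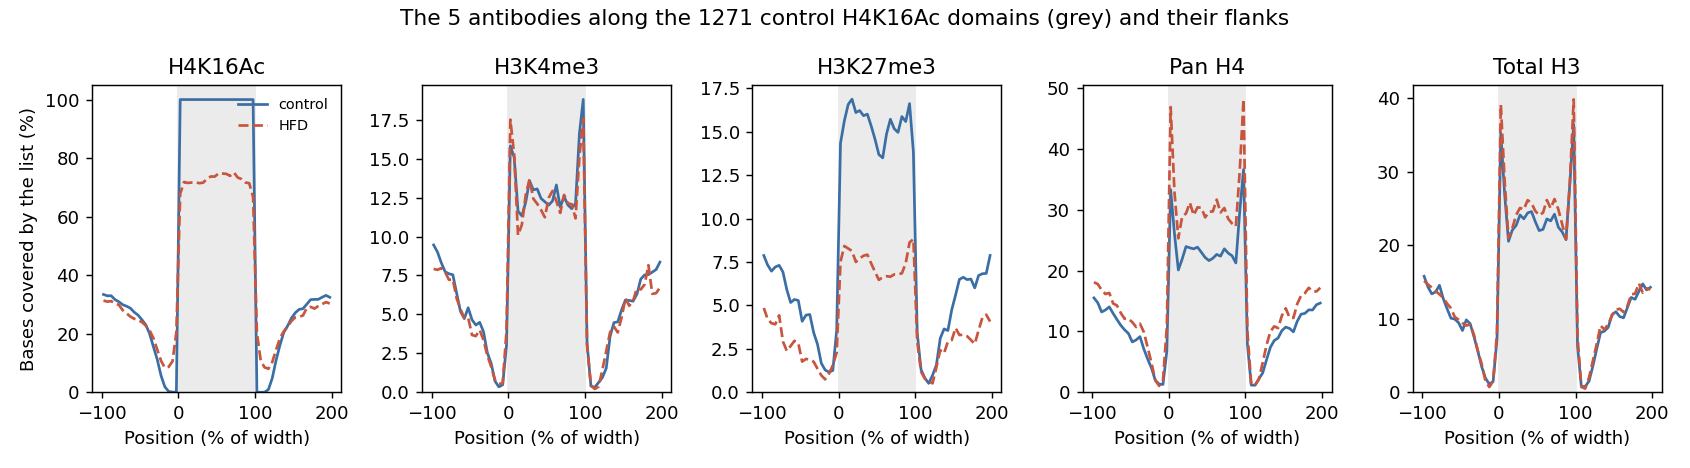
Percent of bases covered by each list along the control domains, each scaled to 20 bins from one end to the other (position in percent of the width, grey), with a flank of the same length on either side. Solid lines are control and dashed lines HFD. Pan H4, total H3 and H3K4me3 are highest at the ends of the domain, and H4K16Ac in HFD stays between 66.7% and 75.1% across it.

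At the lenient threshold of the lists, the HFD H4K16Ac list touched nearly all large control domains, most often as several intervals or a shorter one. A domain was called kept where 1 HFD interval covered at least 90% of it, split where 2 or more HFD intervals touched it and none covered that much, shortened where 1 touched it and covered less, and lost where none did. Of the 1271 domains, 351 (27.6%, 25.2 to 30.1%) were kept, 619 (48.7%, 46.0 to 51.4%) were split, 300 (23.6%, 21.4 to 26.0%) were shortened and 1 was lost. Over all control H4K16Ac intervals the shares were 42.9%, 2.13%, 35.8% and 19.1%. With only HFD intervals of −log10 q of 2 or more the lost share was 23.3%, and with 5 or more it was 90.6%. This limit was put on the HFD list alone, and only 2.28% of the control domains themselves reached 5. HFD intervals past 5 touched 9.36% of the domains, 23.8% of all control H4K16Ac intervals and 14.35% of those of 3 to 5 kb. In the nearest class, of 3 to 5 kb, with no such limit, 40.5% were kept, 21.3% split, 37.3% shortened and 0.863% lost. Where HFD pieces within 2000 bp of each other were joined, 52.6% of the large domains were kept and 14.5% split, so that kept became the most frequent. A wide interval is easier to touch and to divide, so these shares are set beside the background without a reading.

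HFD intervals covered 72.4% of domain bases (5.58 of 7.72 Mb), near the 68.6% of all control H4K16Ac intervals and the 71.4% of those of 3 to 5 kb, with a median of 73.2% per domain (quartiles 58.1 and 95.03%). There were 105 domains (8.26%) covered from end to end and 206 (16.2%) covered for less than 50% of their length, against 18.2% and 30.2% of all intervals. Where a domain was divided, 549 had 2 pieces, 66 had 3, 3 had 4 and 1 had 5. The 694 gaps between pieces had a median of 1606 bp (quartiles 1313 and 2042 bp), and none was under 1000 bp. Neighbouring intervals of the H4K16Ac lists were nowhere closer than 1194 bp in control and 1175 bp in HFD, so that no shorter gap was listed in either. The longest HFD interval that touched a domain had a median of 4107 bp, and in 241 domains (19.0%) it was longer than the domain itself, against 39.0% of all intervals.

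Domains chosen for a large width in one list tend to be narrower in another, and the same reading was therefore made with the diets exchanged. Of the 1066 large HFD domains, 352 (33.0%, 30.3 to 35.9%) were kept in the control list, 444 (41.7%, 38.7 to 44.6%) were split, 265 (24.9%) were shortened and 5 (0.469%) were lost, and 75.3% of their bases were covered. Over all HFD H4K16Ac intervals 46.2% were kept, 1.43% split, 33.5% shortened and 18.9% lost, so that kept was the larger share in this direction over all intervals too. The gaps had a median of 1592.5 bp. Division into pieces was thus found in both directions, by value more often for control domains read in HFD. With only control intervals of −log10 q of 2 or more, 45.8% of the HFD domains were lost in control, and with 5 or more 94.4%. Of the HFD domains themselves, 3.56% reached 5. Control intervals past 5 touched 5.63% of these domains, 21.1% of all HFD H4K16Ac intervals and 11.9% of those of 3 to 5 kb. The order of the kept shares and of the covered bases turned with the strength required of the other list. With intervals of −log10 q of 2 or more, 18.4% of control domains were kept in HFD with 0.455 of their bases covered. At that limit 16.04% of HFD domains were kept in control with 0.330 of theirs covered. Wide HFD intervals had the higher median −log10 q, 2.53 against 2.22 in control for 3 to 5 kb. For 5 kb or more the medians were 2.11 and 1.86. The part of this in the turn was not tested. For domains of 7500 bp or more the order of the covered bases turned as well, with 0.701 for control domains in HFD and 0.693 for HFD domains in control. A large domain of the other list touched 458 of the control domains (36.0%) and 459 of the HFD domains (43.1%). The same share was not computed over all H4K16Ac intervals, so these counts are given without a reading.

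**Figure D5:**
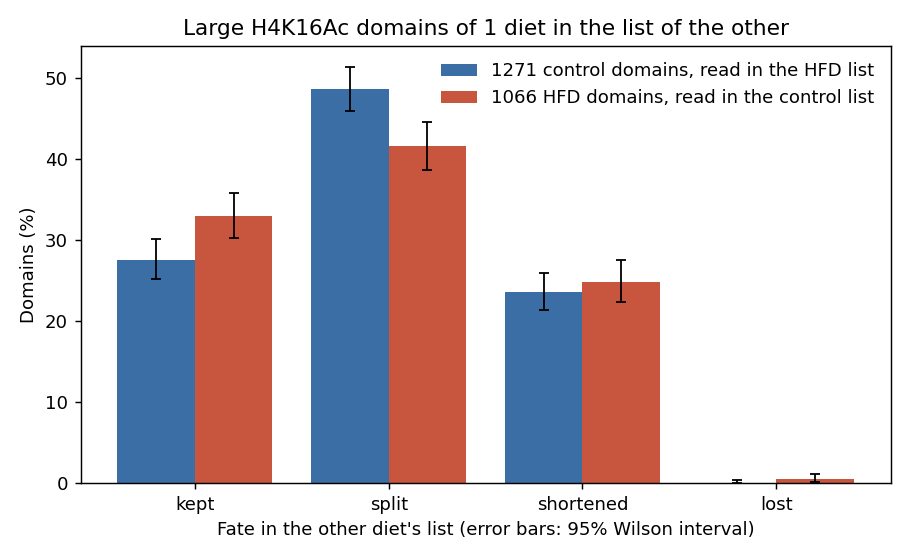
Percent of large domains kept, split, shortened or lost in the other diet's H4K16Ac list, for control domains read in HFD and for HFD domains read in control; error bars are 95% Wilson intervals (counting error only). With pieces as listed, split domains are the most frequent in both directions, at 48.7% and 41.7%.

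The widest domains were divided most. Of 312 domains of 6500 bp or more, 19.6% were kept and 64.4% split, whereas 29.7% were kept and 44.9% split among 448 domains of 5000 to 5500 bp. Large domains with control H3K4me3 or H3K27me3 were kept more often by value than those without. The same split was not made over all control H4K16Ac intervals, so this is not read as particular to large domains. With control H3K4me3 29.4% (26.8 to 32.2%, 1088 domains) were kept, and without it 16.9% (12.2 to 23.0%, 183 domains). With control H3K27me3 32.6% (29.6 to 35.8%, 877 domains) were kept, and without it 16.5% (13.2 to 20.5%, 394 domains). Domains with either mark had slightly larger median widths, of 5781.5 and 5812 bp against 5628 and 5608.5 bp. The limits set the level of these shares: with 50% of the domain required in place of 90%, 64.9% were kept, and with only HFD intervals of −log10 q of 2 or more, 18.4% were kept and 16.2% split.

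The 5 widest domains were all split in HFD. The widest, chr10:45371743-45387510 (15768 bp, fold enrichment 2.08), was listed in HFD as pieces of 1070, 1502 and 9002 bp, which covered 73.4% of it. It held 3 H3K4me3 intervals of 1095 bp in control and 1 of 727 bp in HFD, and a single H3K27me3 interval of 1254 bp in control and none in HFD. Pan H4 went the other way, with 4 intervals of 1823 bp in control and 7 of 3491 bp in HFD, as did total H3, with 5 intervals of 2659 bp and 11 of 4206 bp.

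The domain chr20:7149024-7161980 (12957 bp) was listed in HFD as 2 intervals that covered 84.9% of it. It held 4 H3K27me3 intervals of 2383 bp in control and 1 of 1168 bp in HFD, with H3K4me3 of 742 and 711 bp and pan H4 of 2828 and 4464 bp. The domain chr4:126635162-126646947 (11786 bp) was in 4 pieces covering 64.2%, and differed from both in having more H3K4me3 in HFD (324 bp in control, 1050 bp in HFD) and less pan H4 (2590 and 2055 bp). Its control H3K27me3 spanned 1706 bp and the HFD list gave none. The domain chr1:100894619-100906195 (11577 bp) was the most divided of all, with 5 HFD pieces of 431 to 1306 bp that covered 38.9% of it. Its H3K27me3 was nearly equal in the diets (689 and 671 bp), and its H3K4me3 spanned 1714 and 1081 bp. The last of these, chr19:55710203-55721701 (11499 bp), was covered for 59.7% by 3 pieces, with H3K27me3 of 968 and 272 bp and H3K4me3 of 1358 and 393 bp. Among narrower domains, chr4:122992133-122999043 (6911 bp) was also in 4 HFD pieces, with 2289 bp inside the domain, with H3K27me3 of 338 bp in control alone.

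Domains with the most H3K27me3 or H3K4me3 were picked for these values, carried both marks over most of their length in control, and were all kept in HFD. The domain chr14:108824802-108831043 (6242 bp) lay wholly in control H3K27me3 and had 1798 bp of it in HFD, with H3K4me3 of 4385 bp in control and 3968 bp in HFD. In chr1:181072477-181078829 (6353 bp) H3K27me3 covered 5868 bp in control and 5300 bp in HFD, and H3K4me3 3273 and 4229 bp. In chr12:3350500-3357389 (6890 bp) the values were 5526 and 5482 bp for H3K27me3 and 3544 and 4605 bp for H3K4me3. The most H3K4me3 was in chr1:11909676-11917069 (7394 bp), with 4752 bp in control and 4695 bp in HFD, beside H3K27me3 of 4512 and 5483 bp. In chr10:109417278-109424660 (7383 bp), H3K4me3 was as even, with 4551 and 4547 bp, while H3K27me3 spanned 5287 and 1415 bp. H3K27me3 in HFD was thus near or above the control length in 3 of these domains and far below it in the other two.

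The 29 domains with an H4K16Ac −log10 q of 5 or more all held each of the 4 other marks in control. H3K27me3 covered 50.8% of their bases in control and 41.4% in HFD, a ratio of 0.815, where the remaining 1242 domains had 14.6% and 6.71%, a ratio of 0.460. H3K4me3 covered 36.6% in control and 40.6% in HFD. Pan H4, which was higher in HFD in the remaining domains (23.8% and 31.3%, a ratio of 1.31), was nearly equal here, with 46.8% and 47.4%. In HFD 16 of the 29 (55.2%) were kept, against 335 of 1242 (26.97%). Over the whole control list 37297 H4K16Ac intervals (21.5%) reached the same −log10 q. Their marks and fates were not computed, so the values of the 29 are not read as particular to large domains. The highest values were those of chrX:36466612-36471827 (5216 bp, fold enrichment 2.64, −log10 q 36.4), chr12:3350500-3357389 (fold enrichment 2.23, −log10 q 19.6) and chr14:46522405-46527563 (5159 bp, fold enrichment 2.09, −log10 q 19.3). The first of these folds was above the upper quartile of 2.45, the second near the median of 2.26 and the last at the lower quartile of 2.09. The local background that such an averaged fold and p-value imply was about 91.0, 82.9 and 102.5 fragments per base, with a median of 21.3 for the 29 domains and 7.07 for the rest. The part of this high local pileup in their values was not tested. All 3 were kept in HFD and held the 4 other marks in both diets. These 29 domains were set apart after their values were seen, and without them, and without the domains of the HFD list past the same −log10 q, none of the 21 shares and ratios recomputed for all domains moved by over 1.5 times.

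The 1 lost domain, chr2:8828-14147 (5320 bp, fold enrichment 2.17, −log10 q 0.712), lay at the very start of chromosome 2. It had no H3K27me3, an H3K4me3 interval of 301 bp in control and 345 bp in HFD, and pan H4 and total H3 in HFD only, of 195 and 188 bp. The 3 domains just inside the width limit were all split in HFD, with 2763, 2763 and 3249 bp covered, and the 3 intervals just outside it were all kept, with 4935, 4996 and 4977 bp covered. The widest HFD domains were divided in control in the same way: chr20:6669788-6684005 (14218 bp) and chr3:176731131-176744591 (13461 bp) were in 3 control pieces each, covering 8312 and 10557 bp, and chr3:6286265-6298568 (12304 bp) was in 2 pieces covering 5338 bp.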

How the data were processed

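According to the submitters' processing notes and the methods, bowtie2 was used for alignment to rn6 and MACS2 for peaks. Recommended options are named for MACS2. Their values, duplicate removal and input libraries are not given in the sources used here. In the lists the authors deposited, each interval has a fold enrichment (a ratio to the local background), a −log10 p-value and a −log10 q-value, and the 6 narrow lists (H3K4me3, pan H4, total H3) also give a summit position. The 4 broad lists (H4K16Ac, H3K27me3) hold averages over the interval. An interval listed for several summits was counted once.

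Widths, covered bases, fates and overlaps (1 bp or more) were computed with pandas 2.3.3 and numpy 2.4.6 under Python 3.11.15, with scipy 1.17.1 for pileups and matplotlib 3.10.9 for figures, and the interval arithmetic was tested on simulated data against a base by base count (1200 of 1200 intervals equal). Background pileups rest on the form in which MACS2 writes fold enrichment and p, and are approximate for broad lists. Groups follow the antibody and diet of the labels. No test was run, as each antibody and diet has 1 list, and the libraries behind a list cannot be separated. Shares have Wilson intervals. Chromosome spans and densities were taken to the last listed interval of any list.

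The members, the width classes and the comparisons were chosen with earlier results of these data known. Named regions were the 5 widest domains, the 3 with the most control H3K27me3, the most control H3K4me3 and the most HFD pieces, lost domains, those next to the limit and the 3 widest HFD domains. The 29 domains of highest −log10 q and the groups of neighbours were added after the values were seen. Alternatives were other width limits, q limits, overlaps, lists of equal length, other kept limits and joining of neighbours. Others left out domains of −log10 q of 5 or more, used assembled chromosomes only, or took domains from the HFD list. The reference tables belong to GRCr8, another assembly than rn6, and were not used, so that no gene or sequence is given.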

Additional observations from a re-analysis of the deposited data

How the results depend on the processing

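Each list pools 3 libraries, so no replicate could be left out. No paired analysis was possible because each list was called on 3 libraries together. Of 236 values recomputed under the alternatives, 159 stayed within counting error or 1.5 times and 77 moved. The 159 include every value with intervals or pieces within 1000 bp joined, which could not move. The strength required of the other lists moved the most. At −log10 q of 2 or more, control H3K4me3 was in 54.1% of domains, control and HFD H3K27me3 in 19.0% and 1.97% with a ratio of covered bases of 0.128, 18.4% were kept, 16.2% split and 0.455 of the bases covered in HFD, and 16.04% of HFD domains were kept in control with 0.330 of their bases covered. At 5 or more these values were 20.6%, 10.4%, 0.551%, 0.104, 1.49%, 0.708%, 0.0378, 1.41% and 0.0294, and the pan H4 ratio was 2.53. The share lost at these limits was 23.3% and 90.6% for control domains in HFD and 45.8% and 94.4% for HFD domains in control. The limits were put on the other list alone, and few of the domains themselves reached 5. Covered bases at these limits were not computed over all H4K16Ac intervals. Domains of 4000 bp or more held control H3K4me3 in 81.9%, control H3K27me3 in 65.2% and HFD H3K27me3 in 45.9%, and 33.4% were kept, 36.2% split and 39.5% of HFD domains kept in control. At 7500 bp or more the same values were 90.9%, 76.9%, 56.2%, 10.7%, 78.5% and 12.5%. With lists of equal length 54.1% held control H3K27me3. With 75% of a domain required, 38.4% were kept, and 44.1% of HFD domains in control. With 50% required, 64.9% were kept, 31.2% split and 69.4% of HFD domains kept in control.

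Joining intervals within 1000 bp altered nothing, because no gaps are that small, and a minimum overlap of 200 bp was not applied to covered bases. Other alternatives were chosen after seeing the data. Intervals within 2000 bp joined before the width rule gave 34.9% kept, 36.6% split and 45.0% of HFD domains kept in control. Pieces within 2000 bp joined at unaltered domains gave 52.6% kept, 14.5% split and 58.8% of HFD domains kept. Domains of the HFD list held H3K27me3 in 76.3% in control and 53.9% in HFD. The ratio of covered bases between HFD and control lay between 0.908 and 1.01 for H3K4me3, on both sides of 1, 0.104 and 0.632 for H3K27me3, 1.23 and 2.53 for pan H4 and 1.03 and 1.27 for total H3. The causes of these moves were not tested. The background of HFD H3K27me3 was 0.351 fragments per base against 0.880 in control, and diet and depth cannot be told apart there.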
